A study of Mus musculus with 24 samples.

Results

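The genes described here make cholesterol in the liver cell, sense it, move it and store it. They were chosen as 27 named genes of the pathway, and all 27 had counts and passed the filter on low values, out of 19381 genes kept of the 53467 in the table. The samples were the livers of 24 male C57BL/6JAusb mice, aged 14 to 15 weeks at plasmid injection, with 1 RNA-seq library per mouse that counted molecules at the 3′ end of transcripts. All mice received 0.8 µg of the Sleeping Beauty transposase plasmid (SB) by hydrodynamic tail vein injection. There were 5 SB/AKT/NRas + TAA livers, 4 SB/AKT/NRas + saline livers, 4 SB/AKT/c-Met + TAA livers, 3 SB/AKT/c-Met + saline livers, 4 SB + TAA livers and 4 SB + saline livers. The oncogene groups also received 10 µg of a plasmid for an active, membrane-bound form of AKT and 10 µg of a plasmid for c-Met or for an active form of NRas. The hepatotoxin thioacetamide (TAA) or saline was given from day 8 to 10 onwards in 10 to 11 intraperitoneal injections over 5 to 6 weeks, with a TAA dose of 100 mg/kg that was later raised to 200 mg/kg. General promoters (CMV, CAGGS and EF1a) drove the plasmids. The transposase inserts the oncogenes into the genome, so cells that took the plasmids up and their descendants could carry them. Each library held the RNA of carrying and other cells together.

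Cholesterol is built from acetyl-CoA through mevalonate, farnesyl diphosphate, squalene and lanosterol. When the membranes of the endoplasmic reticulum lose sterol, SCAP escorts the transcription factor SREBP2 to the Golgi for cleavage, and the freed fragment switches on most genes of the pathway; INSIG proteins hold SCAP back when sterol is plentiful. Liver X receptors (LXRs) sense oxidised sterols and switch on genes that export cholesterol and limit its uptake.

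Total counts were 2152510 to 3399247 per liver (median 2832909), and levels are given as normalized CPM, the counts of a gene relative to a common library total after scaling by the trimmed mean of M-values (TMM). The share of records that the authors' counting assigned to genes was 20.7% to 23.1% in SB + TAA livers and 15.6% to 16.7% in SB + saline livers, and its part in the comparison of these groups was not tested. The summed level of 6 hepatocyte markers was 54290 to 92580 CPM in the 4 oncogene groups and 86360 to 120900 CPM in the SB groups. Of the 5 marker lists, the hepatocyte list had the highest sum in every liver. SB + TAA replicate 4 held skeletal muscle transcripts, with 6689 CPM over 6 muscle markers against 3.42 to 30.4 CPM in the other livers. Bile duct markers reached 8803 CPM in SB/AKT/NRas + saline and stayed at 56.5 to 96.2 CPM in SB + saline. In these bulk samples, fewer cells of a type and less RNA per cell cannot be told apart.

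Promoters of 6 members are shown because these genes moved together from liver to liver or changed between groups in the results that follow, or, for Hmgcs1, because the window holds a sterol regulatory element. Promoter sequences were matched for 22 of the 27 members in RefSeq (GRCm38.p6), and the 250 bases before the start site are printed in the direction of transcription. Capitals mark the CCAAT box, which binds NF-Y, a factor known to act beside SREBPs, and in Hmgcs1 also the sterol regulatory element TCACNCCAC, both searched on both strands (reverse forms ATTGG and GTGGNGTGA).
Cyp51 (chr5:4104698-4104947, minus strand): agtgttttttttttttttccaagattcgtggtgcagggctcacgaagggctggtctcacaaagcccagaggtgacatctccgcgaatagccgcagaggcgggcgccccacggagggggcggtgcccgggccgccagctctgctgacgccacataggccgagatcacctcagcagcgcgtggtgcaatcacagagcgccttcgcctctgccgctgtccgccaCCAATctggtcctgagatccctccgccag
Msmo1 (chr8:64733579-64733828, minus strand): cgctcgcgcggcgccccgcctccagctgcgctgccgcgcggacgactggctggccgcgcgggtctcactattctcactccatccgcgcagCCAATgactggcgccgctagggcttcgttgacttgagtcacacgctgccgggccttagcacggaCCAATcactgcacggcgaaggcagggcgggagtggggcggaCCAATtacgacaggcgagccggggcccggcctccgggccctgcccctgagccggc
Nsdhl (chrX:72918271-72918520, plus strand): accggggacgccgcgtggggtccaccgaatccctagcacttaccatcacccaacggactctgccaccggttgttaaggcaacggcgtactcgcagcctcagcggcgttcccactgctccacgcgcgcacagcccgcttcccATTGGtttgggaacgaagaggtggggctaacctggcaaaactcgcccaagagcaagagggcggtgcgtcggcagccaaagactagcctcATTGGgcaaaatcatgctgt
Tm7sf2 (chr19:6067851-6068100, minus strand): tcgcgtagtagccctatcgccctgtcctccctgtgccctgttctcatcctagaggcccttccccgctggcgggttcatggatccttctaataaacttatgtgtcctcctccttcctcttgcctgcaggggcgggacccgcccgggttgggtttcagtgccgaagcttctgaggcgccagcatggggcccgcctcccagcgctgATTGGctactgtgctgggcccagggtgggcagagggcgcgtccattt
Ebp (chrX:8193513-8193762, minus strand): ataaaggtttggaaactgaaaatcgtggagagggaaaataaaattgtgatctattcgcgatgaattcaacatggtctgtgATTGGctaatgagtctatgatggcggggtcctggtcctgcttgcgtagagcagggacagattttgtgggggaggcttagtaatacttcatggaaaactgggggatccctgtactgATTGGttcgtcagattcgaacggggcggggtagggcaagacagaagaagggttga
Hmgcs1 (chr13:119690101-119690350, plus strand): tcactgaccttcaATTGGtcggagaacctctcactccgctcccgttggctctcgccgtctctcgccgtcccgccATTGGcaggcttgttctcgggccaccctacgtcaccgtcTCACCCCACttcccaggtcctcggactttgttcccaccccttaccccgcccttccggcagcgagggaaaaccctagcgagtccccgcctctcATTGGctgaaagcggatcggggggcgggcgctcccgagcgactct
A CCAAT box lay in at least 1 window of 14 of the 15 synthesis enzymes matched (93.3%) and of 18 of the 22 members matched (81.8%), against 37.5% of 27025 genes. The sterol regulatory element in this form was found in the window of Hmgcs1 alone among the 22 members matched, and in that of 1.22% of all genes. Other forms and bases farther from the start were not searched. Fdps, Fdft1, Sqle, Stard4 and Soat2 had no promoter matched, so they could not be searched. The Msmo1 window held 3 CCAAT boxes, at 160, 96 and 55 bases before the start, and the windows of Cyp51 and Tm7sf2 held 1 each, at 29 and 47 bases. A match describes these letters and does not show binding.

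Levels of 3 members differed across the 6 groups beyond the spread between livers. An F test over all groups (edgeR quasi-likelihood, Benjamini-Hochberg adjusted p under 0.05 over all genes kept) called 3 of the 27 members, or 11.1%, where the same test called 9.01% of all genes. These were Tm7sf2 and Ebp, which act in the conversion of lanosterol to cholesterol, and Insig2, a sterol sensor of the endoplasmic reticulum. At an unadjusted p under 0.05 the F test found 9 members (33.3%) and 22.9% of all genes. The count was 6 without SB + TAA replicate 2, 5 without SB/AKT/c-Met + saline replicate 3 and 5 without SB/AKT/NRas + saline replicate 1, and Ebp did not pass without SB + saline replicate 1 (adjusted p = 0.0757). Among the other 24 members, the highest group mean was 1.23 times the lowest for Acat2 and 2.41 times the lowest for Sqle.

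Tm7sf2 (ENSMUSG00000024799, chr19:6062821-6068373, GRCm38) encodes a reductase that removes a double bond from the sterol ring after Cyp51 has acted. Its level was 34.6, 47.8, 45.0 and 33.0 CPM in SB + TAA livers, against 111, 71.1, 80.6 and 99.3 CPM in SB + saline livers. The 4 SB + TAA livers all lay below the 4 SB + saline livers, as in 5.20% of all genes, and the gene was the single member that passed in this comparison. Tm7sf2 fell by 1.18 on the log2 scale with TAA alone (SE 0.275, edgeR adjusted p = 0.0106), and it passed under every alternative run for this comparison. The background for a fall in this comparison was 2.51% of all genes, and 5.99% were called in either direction, against 1 of 27 members (3.70%). In the same comparison 3 of 8 macrophage markers rose, with a sum of 350.1 to 402.8 CPM in SB + TAA and 157.5 to 323.6 CPM in SB + saline. Of 6 stellate cell and myofibroblast markers 3 rose, with a sum of 356.8 to 677.5 CPM in SB + TAA and 187.6 to 314 CPM in SB + saline. Their part in the level of Tm7sf2 was not tested.

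Tm7sf2 was also low in the livers with oncogenes, at 77.8, 37.9, 43.2 and 28.3 CPM in SB/AKT/NRas + saline and 36.1, 35.2 and 58.9 CPM in SB/AKT/c-Met + saline. It fell by 0.96 in SB/AKT/NRas + saline relative to SB + saline (log2 scale, SE 0.274, edgeR adjusted p = 0.0270), although replicate 1 at 77.8 CPM lay among the SB + saline livers. In SB/AKT/c-Met + saline the difference from SB + saline was −1.06 (SE 0.302, edgeR adjusted p = 0.122), and the groups did not overlap, as in 4.85% of all genes. DESeq2 placed that difference at an adjusted p of 0.0437. It passed in 3 of 17 alternatives, and the highest adjusted p among the 17 was 0.533. With TAA in addition, the livers held 24.7 to 55.2 CPM in SB/AKT/NRas + TAA livers and 26.4 to 43.0 CPM in SB/AKT/c-Met + TAA livers, which overlapped with the 33.0 to 47.8 CPM of SB + TAA. Exons of Tm7sf2 share sequence on the same strand with the neighbouring gene Vps51, so its counts are uncertain there.

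Ebp (ENSMUSG00000031168, chrX:8185329-8193512) encodes the isomerase that shifts the ring double bond a few steps later. Its level was 264, 173, 180 and 155 CPM in SB/AKT/NRas + saline livers, against 329, 290, 303 and 294 CPM in SB + saline livers. No liver of one group reached the range of the other, which held for 4.27% of all genes in this direction. Ebp fell by 0.66 on the log2 scale (SE 0.176, edgeR adjusted p = 0.0198), and with Tm7sf2 it made up the 2 of 27 members called (7.41%), both lower, where 8.41% of all genes were called and 2.84% were lower. The order of the means ran from 172 CPM in SB/AKT/NRas + TAA and 193 CPM in SB/AKT/NRas + saline through 200 CPM in SB/AKT/c-Met + saline, 204 CPM in SB/AKT/c-Met + TAA livers and 242 CPM in SB + TAA to 304 CPM in SB + saline. Neighbours in that order overlapped except for SB + TAA and SB + saline. The SB/AKT/c-Met + saline livers (190, 175 and 236 CPM) lay below all SB + saline livers, with a log2 difference of −0.60 (SE 0.192, edgeR adjusted p = 0.200, DESeq2 adjusted p = 0.0495). DESeq2 was the 1 of 17 alternatives in which this difference passed.

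The calls of Tm7sf2 and Ebp in SB/AKT/NRas + saline were lost when any of several livers was left out, while the direction stayed, with log2 differences of −1.32 to −0.78 for Tm7sf2 and −0.86 to −0.57 for Ebp over these omissions. No member was called without SB + saline replicate 1, or without replicate 2, 3 or 4 of SB/AKT/NRas + saline, Ebp alone without SB + saline replicate 4, and 5 members without SB/AKT/NRas + saline replicate 1 (the pair with Mvd, Scap and Nr1h3). With library size as the only scaling the median of all genes in this comparison was 0.50, against 0.07 with TMM, and the members called were 7 higher and 0 lower, while Tm7sf2 stayed at −0.58 and Ebp at −0.26. Within groups, Tm7sf2 and Ebp followed each other from liver to liver (r = 0.837 over 24 livers) and followed the summed hepatocyte markers (r = 0.853 and r = 0.713). In SB/AKT/NRas + saline that sum was 92580 CPM in replicate 1 and 56720, 80590 and 54290 CPM in the other replicates, against 102200 to 120900 CPM in SB + saline. In this comparison 4 of 8 macrophage markers, 4 of 6 stellate cell and myofibroblast markers and 3 of 6 bile duct markers rose. Of the 6 hepatocyte markers 1 fell. Within groups, Tm7sf2 and Ebp ran against the summed bile duct markers (r = −0.464 and r = −0.456), macrophage markers (−0.378 and −0.372) and stellate markers (−0.396 and −0.316). The part of these markers and of the hepatocyte markers in the differences was not tested.

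**Figure D1:**
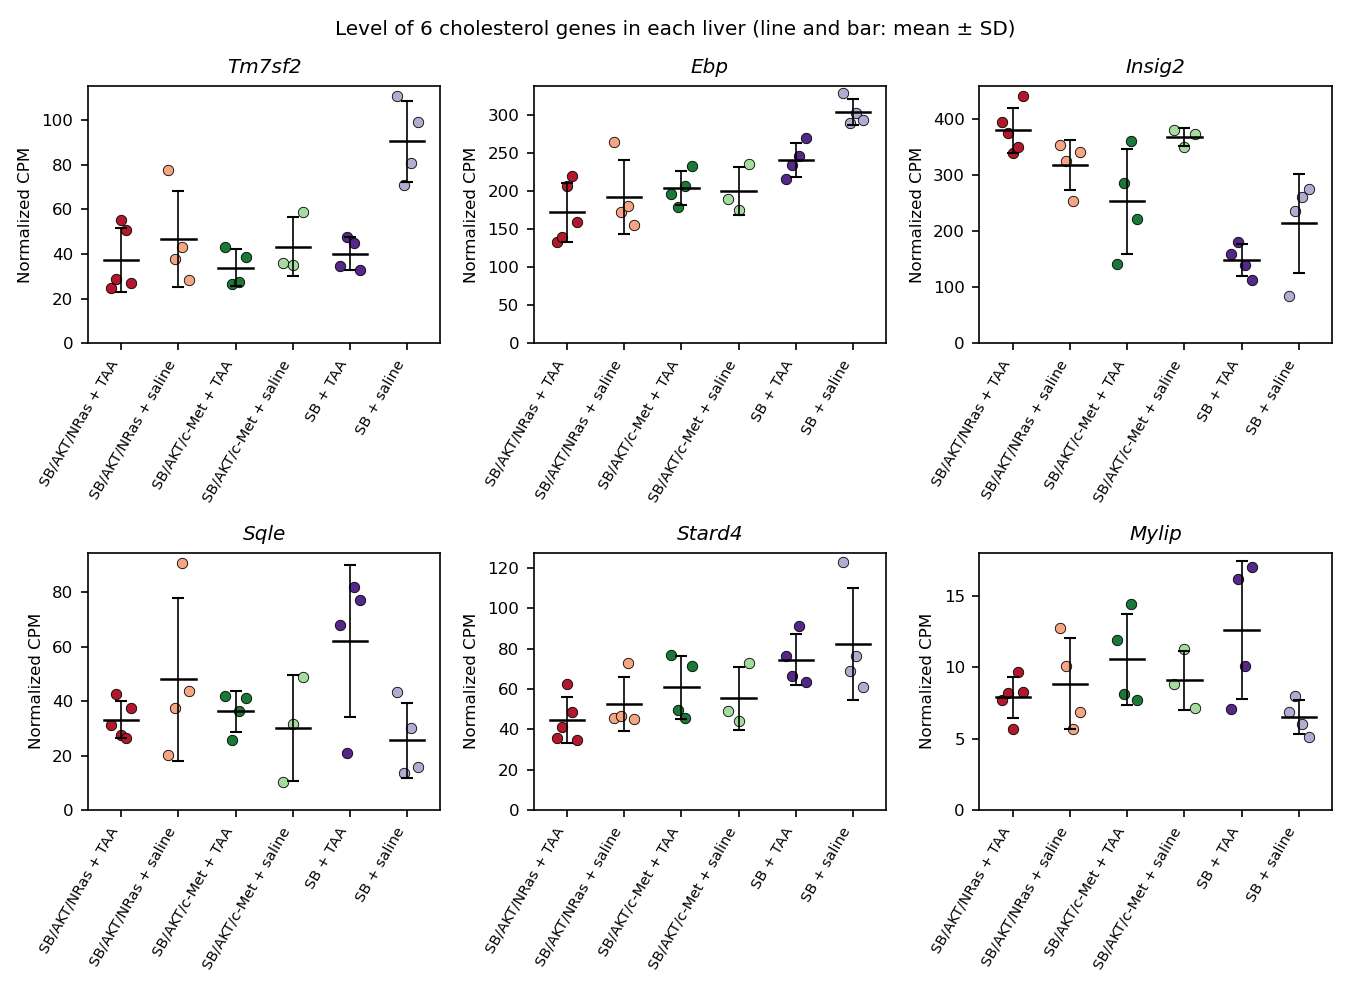
Normalized CPM (y axis) of Tm7sf2, Ebp, Insig2, Sqle, Stard4 and Mylip in each of 24 livers (points) by group (x axis), with the mean (line) and SD (bars). The Tm7sf2 points of SB + TAA lie at 33.0 to 47.8 CPM, below the 71.1 to 111 CPM of SB + saline, and the Insig2 points of SB/AKT/NRas + TAA lie at 340 to 441 CPM, above the 113 to 180 CPM of SB + TAA.

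Insig2 (ENSMUSG00000003721, chr1:121304353-121332589) encodes the INSIG protein known in liver for its repression by insulin. Its level was 394, 375, 340, 350 and 441 CPM in SB/AKT/NRas + TAA livers, against 160, 180, 140 and 113 CPM in SB + TAA livers. All 5 livers with the plasmids lay above all 4 without them, as in 2.89% of all genes. Insig2 rose by 1.36 on the log2 scale (2.56-fold, SE 0.252, edgeR adjusted p = 0.00238) and passed under every alternative run. It was the single member called in this comparison (3.70% of the members, against 1.47% of all genes, or 1.01% higher).

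The other oncogene groups also held more Insig2 on average. The SB/AKT/c-Met + saline livers had 380, 351 and 373 CPM and the SB/AKT/NRas + saline livers had 353, 325, 254 and 342 CPM, against 84.7, 236, 260 and 274 CPM in SB + saline. The SB/AKT/c-Met + saline livers lay above every SB + saline liver (as in 5.28% of all genes), with a difference of 0.78 (log2 scale, SE 0.276, edgeR adjusted p = 0.277). SB/AKT/NRas + saline overlapped with SB + saline and differed by 0.57 (SE 0.258, edgeR adjusted p = 0.179). SB/AKT/c-Met + TAA spread from 142 to 362 CPM and overlapped with SB + TAA, with a difference of 0.77 (SE 0.259, edgeR adjusted p = 0.286). Without SB + saline replicate 1, which at 84.7 CPM was the lowest of all 24 livers, the difference in Insig2 between SB + TAA and SB + saline was −0.81 with an edgeR adjusted p of 0.0348. With all livers that difference was −0.53 and did not pass. That omission was the 1 of 18 alternatives in which it passed.

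With TAA alone, no gene of the early steps of synthesis passed. Among the 7 genes of the mevalonate steps, from Acat2, which joins acetyl-CoA units, to Fdps, which makes farnesyl diphosphate, 6 had a log2 difference above 0 in SB + TAA relative to SB + saline and none passed (median 0.21, range −0.28 to 0.65). The largest of these belonged to Mvd, the decarboxylase that makes isopentenyl diphosphate, with 12.4, 4.74, 10.1 and 10.8 CPM in SB + TAA, against 5.14, 5.68, 10.4 and 3.00 CPM in SB + saline. At an unadjusted p under 0.05 there were 5 members in this comparison (18.5%), against 20.7% of all genes. The groups overlapped for Mvd, which rested on 7 to 40 counts per liver in them. The median of all 27 members was 0.11, against 0.09 for all genes kept. It changed with the livers used, to −0.08 without SB + TAA replicate 3, 0.0018 without SB + saline replicate 4 and 0.24 without SB + TAA replicate 2.

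Of the 3 genes from farnesyl diphosphate to lanosterol, Sqle had the largest difference in this comparison, without passing. Sqle, the squalene epoxidase that is often rate-limiting, was at 67.9, 20.9, 82.0 and 77.1 CPM in SB + TAA livers, against 43.2, 13.6, 30.1 and 15.8 CPM in SB + saline livers. Of the SB + TAA livers 3 lay above all SB + saline livers, and replicate 2 lay among them. The difference was 1.26 (SE 0.417, edgeR adjusted p = 0.0714). Sqle passed without SB + TAA replicate 2 (adjusted p = 0.0125) and without SB + saline replicate 1 (adjusted p = 0.0430), and under DESeq2 (adjusted p = 0.0458). In all it passed in 5 of 18 alternatives, and the highest adjusted p among the 18 was 0.202. Fdft1, the squalene synthase, was at 34.3 to 56.6 CPM in SB + TAA and 21.4 to 40.7 CPM in SB + saline (difference 0.58, SE 0.251, edgeR adjusted p = 0.177). Lss, which closes the rings to lanosterol, overlapped fully, at 13.8 to 33.6 CPM in SB + TAA and 15.8 to 28.5 CPM in SB + saline.

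Of the 8 genes from lanosterol to cholesterol, 4 had a log2 difference above 0 and 4 below it in SB + TAA. Cyp51, the lanosterol demethylase, averaged 97.0 ± 30.1 CPM in SB + TAA and 76.2 ± 17.4 CPM in SB + saline (SD, n = 4 each), and Msmo1, which oxidises the remaining methyl groups, averaged 138 ± 37.9 CPM in SB + TAA and 115 ± 36.6 CPM in SB + saline. Nsdhl, Hsd17b7, Sc5d and Dhcr7, which finish the side groups and the last double bonds of the ring, also overlapped between these groups. Ebp lay lower in all SB + TAA livers (216, 234, 246 and 270 CPM) than in all SB + saline livers, without passing. Together with Tm7sf2 it made 2 of 27 members that did not overlap in this direction (7.41%), against 5.20% of all genes.

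Among the transport and LXR genes, Mylip, a ubiquitin ligase that marks lipoprotein receptors for breakdown, was at 7.06, 16.2, 10.1 and 17.04 CPM in SB + TAA, against 6.85, 7.96, 6.01 and 5.14 CPM in SB + saline. The ranges overlapped through SB + TAA replicate 1, and the difference was 0.97 (SE 0.302, edgeR adjusted p = 0.0547). Mylip rested on 12 to 63 counts per liver here, and it passed without SB + TAA replicate 1 (adjusted p = 0.0251) and under DESeq2 (adjusted p = 0.0494). In all it passed in 5 of 18 alternatives, and the highest adjusted p among the 18 was 0.2395. Nr1h3, the gene of LXR alpha, was at 46.3 to 71.4 CPM in SB + TAA and 55.2 to 82.2 CPM in SB + saline (difference −0.38, edgeR adjusted p = 0.209). Abca1, the LXR target that exports cholesterol, averaged 64.4 ± 5.24 CPM in SB + TAA and 85.5 ± 19.9 CPM in SB + saline (SD, n = 4 each).

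In SB/AKT/c-Met + saline, no member was called against SB + saline by edgeR or limma-voom, where edgeR called 0.640% of all genes. DESeq2 called 2, Tm7sf2 and Ebp. At an unadjusted p under 0.05 there were 6 members (22.2%, against 10.1% of all genes), with Insig2 and Hmgcs1 higher and Tm7sf2, Ebp, Pmvk and Stard4 lower. Hmgcs1, the synthase that makes HMG-CoA, was at 215, 200 and 345 CPM in SB/AKT/c-Met + saline, against 177, 213, 210 and 121 CPM in SB + saline, which overlapped. Pmvk, the phosphomevalonate kinase, was at 38.4, 42.0 and 54.0 CPM, against 53.1, 65.9, 90.2 and 68.1 CPM. Replicate 3 lay at the low end of the SB + saline range and the others below it, and the difference was −0.63 (SE 0.282, edgeR adjusted p = 0.445).

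Beside Tm7sf2 and Ebp, the members with an unadjusted p under 0.05 in SB/AKT/NRas + saline against SB + saline were Insig2, Mvd and Sqle on the higher side and Scap, Stard4 and Nr1h3 on the lower side. With the pair called these were 8 members (29.6%), where 22.4% of all genes reached that p. Scap, the sterol-sensing escort of SREBP2, was at 47.0, 22.6, 22.4 and 29.6 CPM in SB/AKT/NRas + saline and 50.9, 54.0, 38.1 and 43.7 CPM in SB + saline. Replicate 1 of SB/AKT/NRas + saline lay inside the SB + saline range and the others below it (difference −0.63, SE 0.217, edgeR adjusted p = 0.0721). Without that liver the adjusted p was 0.00265, and Scap also passed by limma-voom (0.0479), with no filter (0.0404) and with filterByExpr (0.0493). These were 4 of 18 alternatives, and the highest adjusted p among the 18 was 0.370. Within groups Scap ran against the summed bile duct markers (r = −0.812 over 24 livers) and the stellate markers (r = −0.867). Bile duct markers summed to 150, 2580, 8803 and 920 CPM in the SB/AKT/NRas + saline livers, and their part in the level of Scap was not tested.

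Apart from Insig2, no member passed between SB/AKT/NRas and SB livers that had all received TAA. The 27 members had a median log2 difference of −0.26 in SB/AKT/NRas + TAA relative to SB + TAA, against −0.02 for all genes, and 7 of 27 (25.9%) lay above 0, against 47.5% of all genes. The members' median was −0.15 without SB + TAA replicate 3, −0.41 without SB + TAA replicate 2 and −0.43 without SB/AKT/NRas + TAA replicate 3. At an unadjusted p under 0.05, 9 members were lower (33.3%, against 5.31% of all genes), namely Pmvk, Fdft1, Sqle, Cyp51, Msmo1, Ebp, Scap, Stard4 and Mylip. None of these 9 passed after adjustment. Members moved together within groups (median r 0.276 over the 27), so members in this and the other counts are not separate observations. In either direction 10 members reached that p (37.0%), against 11.2% of all genes. The comparison shares its SB + TAA livers with that of TAA alone.

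Stard4, which carries cholesterol between membranes, came nearest. It was at 35.7, 41.0, 62.4, 48.8 and 34.6 CPM in SB/AKT/NRas + TAA livers, against 76.6, 66.7, 91.4 and 63.6 CPM in SB + TAA livers. The ranges did not overlap, as in 1.71% of all genes in this direction, and the difference was −0.75 (SE 0.221, edgeR adjusted p = 0.0984). Without SB/AKT/NRas + TAA replicate 3 the adjusted p was 0.0355. Stard4 passed in 2 of 19 alternatives, and the highest adjusted p among the 19 was 0.271. Msmo1 was at 59.3 to 117 CPM in SB/AKT/NRas + TAA and 98.7 to 178 CPM in SB + TAA (difference −0.76, SE 0.272, edgeR adjusted p = 0.217).

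Between SB/AKT/c-Met + TAA livers and SB + TAA livers, edgeR, limma-voom and DESeq2 called no member, where edgeR called 0.402% of all genes, and 4 members reached an unadjusted p under 0.05 (14.8%, against 8.91% of all genes). Pmvk stood lowest, at 33.4, 30.3, 39.9 and 59.3 CPM in SB/AKT/c-Met + TAA, against 69.6, 37.5, 101 and 90.9 CPM in SB + TAA. SB + TAA replicate 2 lay among the SB/AKT/c-Met + TAA livers, and the difference was −0.88 (SE 0.257, edgeR adjusted p = 0.172). Without that liver Pmvk passed in this comparison (adjusted p = 0.0147) and between SB/AKT/NRas + TAA livers and SB + TAA livers (adjusted p = 0.0414). It passed in 2 of 18 alternatives in the first comparison and 1 of 19 in the second, with adjusted p up to 0.57 in each. The others of the 4 were Fdft1 and Cyp51 on the lower side and Insig2 on the higher side.

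No member passed for TAA in the livers with oncogenes. Between SB/AKT/c-Met + TAA livers and the SB/AKT/c-Met + saline livers, edgeR called 0 of 27 members, as did limma-voom and DESeq2, with 0 at an unadjusted p under 0.05, where edgeR called 0.237% of all genes and 8.69% reached that unadjusted p. The members' log2 differences ran from −0.54 for Insig2 to 0.52 for Mvk, which phosphorylates mevalonate. Between SB/AKT/NRas + TAA livers and the SB/AKT/NRas + saline livers, all 3 tools called 0 members (0.175% of all genes by edgeR), and 3 members reached an unadjusted p under 0.05, all lower (11.1%, against 8.65% of all genes in either direction and 4.49% lower). These were Lss, Dhcr7, the reductase of the last step, and Cyp51. Lss was at 16.7, 21.1, 24.1, 20.6 and 21.1 CPM in SB/AKT/NRas + TAA, against 11.9, 25.7, 57.1 and 39.7 CPM in SB/AKT/NRas + saline, where the saline livers spread around the TAA livers.

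Between the oncogene pairs no member was called either. Between SB/AKT/NRas + saline livers and the SB/AKT/c-Met + saline livers, edgeR, limma-voom and DESeq2 called 0 members (0.134% of all genes by edgeR), and 3 reached an unadjusted p under 0.05 (11.1%, against 9.45% of all genes), with Dhcr7 and Lss higher and Nr1h3 lower. Between SB/AKT/NRas + TAA livers and the SB/AKT/c-Met + TAA livers all 3 tools again called 0 (0.0103% of all genes by edgeR), and Insig2 alone reached an unadjusted p under 0.05 (3.70%, against 4.61% of all genes), at 340 to 441 CPM against 142 to 362 CPM (difference 0.59, 95% interval 0.08 to 1.09, edgeR adjusted p = 0.956).

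The effect of TAA in oncogene livers was then set against its effect in SB livers. For c-Met no member differed by edgeR, limma-voom or DESeq2 (0.0103% of all genes by edgeR), and 0 members reached an unadjusted p under 0.05, against 8.45% of all genes. For NRas the 3 tools also called 0 members (0.758% of all genes by edgeR), while 8 reached an unadjusted p under 0.05 (29.6%, against 14.9% of all genes). Sqle led these, with a TAA effect that was lower by 1.81 on the log2 scale in SB/AKT/NRas livers than in SB livers (SE 0.565, 95% interval −2.96 to −0.65, edgeR adjusted p = 0.128). Sqle was at 31.4, 42.6, 27.6, 26.5 and 37.6 CPM in SB/AKT/NRas + TAA, against 20.2, 37.6, 90.6 and 43.6 CPM in SB/AKT/NRas + saline. The adjusted p was 0.0279 without SB + TAA replicate 2 and 0.0230 without SB/AKT/NRas + saline replicate 1, where Tm7sf2 also passed (1.21, adjusted p = 0.0398). Of 28 alternatives Sqle passed in 5, with adjusted p up to 0.364, and Tm7sf2 in 1, with adjusted p up to 0.46. All 7 genes of the mevalonate steps had a difference below 0 here (median −0.29), where the median of all genes was −0.11.

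**Figure D2:**
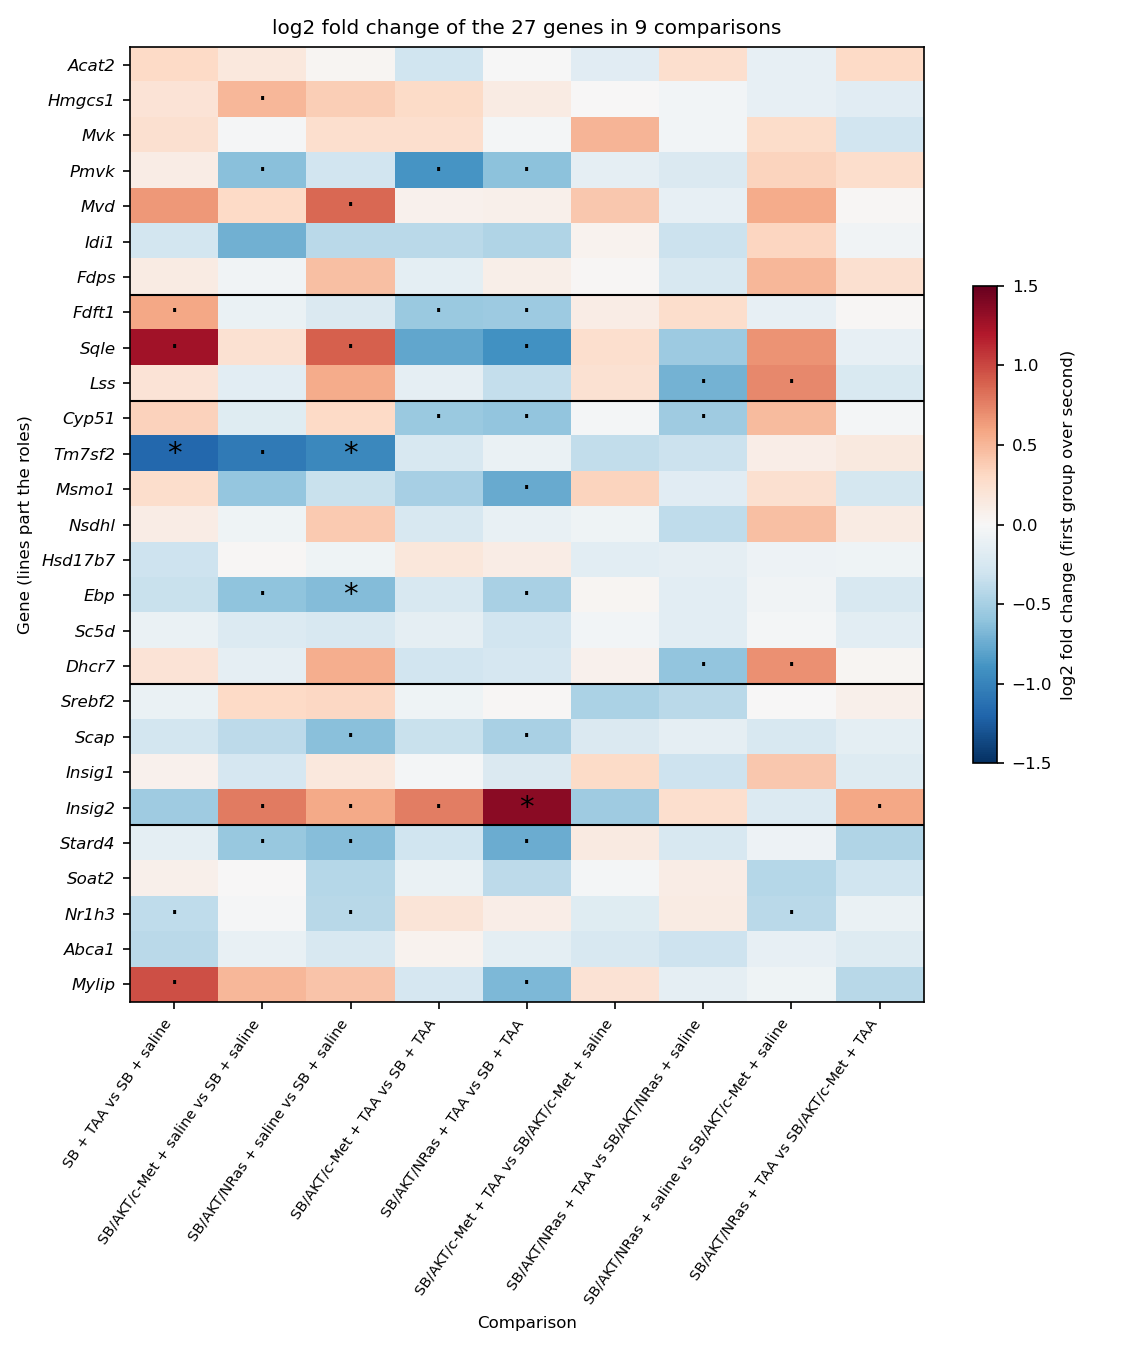
Log2 fold change (colour, first group over second) of the 27 genes (rows, grouped by role) in 9 comparisons (columns). An asterisk marks an edgeR adjusted p under 0.05 and a dot an unadjusted p under 0.05 alone. The 4 asterisks lie at Tm7sf2 (−1.18 and −0.96), Ebp (−0.66) and Insig2 (1.36).

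The enzymes moved together from mouse to mouse within a group. After removing the group means from log2 CPM, the median pairwise correlation was 0.513 among the 18 synthesis enzymes, 0.276 among the 27 members and 0.00339 among the 9252 genes with a mean of at least 5 CPM. Of the enzyme pairs 51.6% had an r above 0.5, and of all gene pairs 5.25%. These values describe 24 livers, each gene pair sharing its libraries, and genes are not independent replicates. The leading pairs were Lss with Dhcr7 (0.890), Cyp51 with Msmo1 (0.867), Mvd with Lss (0.863) and Acat2 with Msmo1 (0.862). Cyp51, Msmo1 and Nsdhl, whose promoters are shown, correlated with each other at 0.832 to 0.867.

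Members outside the synthetic chain divided. Stard4 followed the enzymes (mean r 0.545), most closely Nsdhl (0.818), and Insig1, the INSIG gene that SREBP2 itself switches on, followed them with a mean r of 0.425 and Sc5d with 0.847. Insig2 ran against them, with a mean r of −0.368 and values of −0.658 with Nsdhl and −0.708 with Stard4. Srebf2 itself, the gene of SREBP2, had a mean r of 0.116, Scap −0.100, Soat2, which esterifies cholesterol for storage, −0.0315, Nr1h3 −0.132, Abca1 −0.0369 and Mylip −0.255. By Spearman's rho the enzyme median was 0.484, and without the livers that lay farthest from their groups (replicate 2 of SB + TAA with replicate 3 of SB/AKT/NRas + saline, a choice made after seeing the data) it was 0.360 by Pearson's r.

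**Figure D3:**
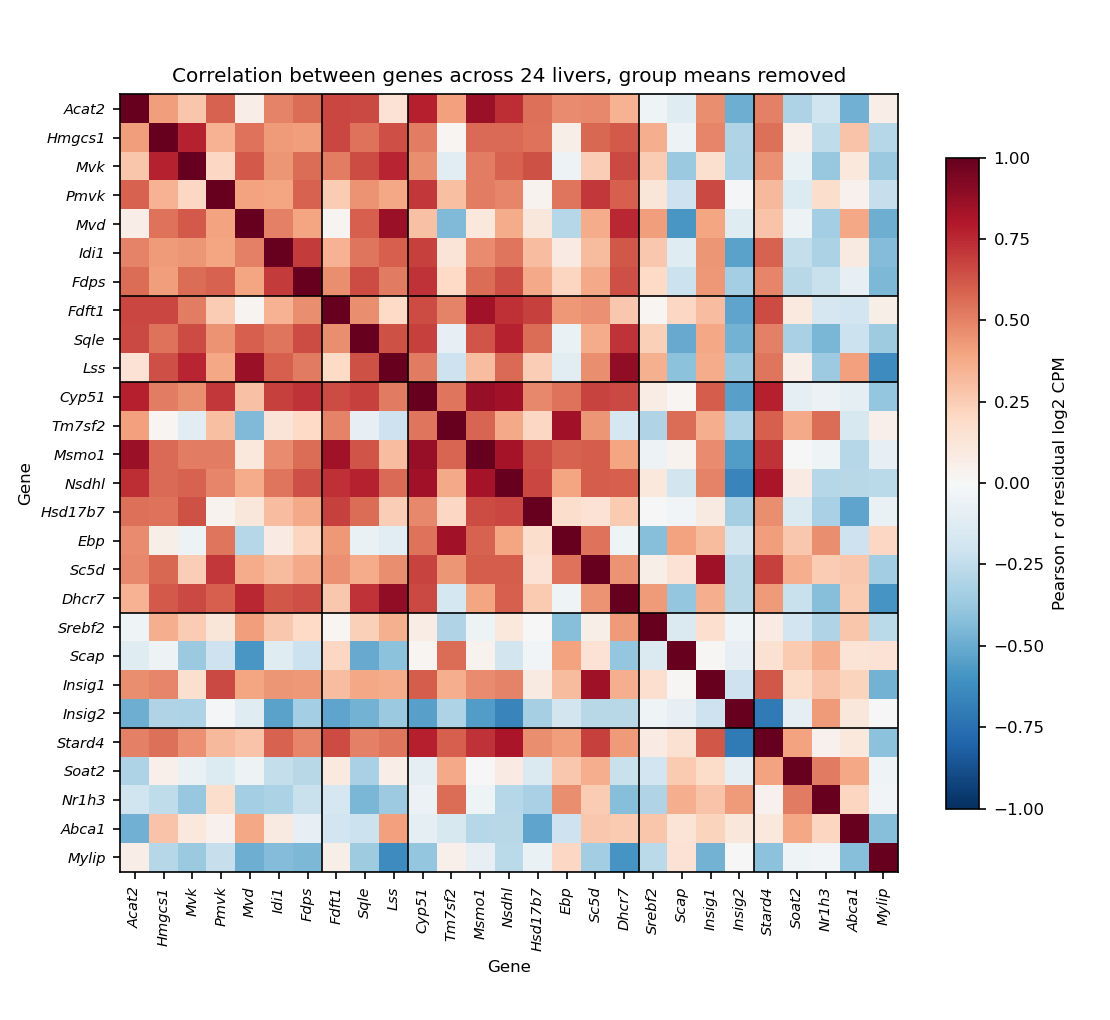
Pearson r (colour) between each pair of the 27 genes over 24 livers after removal of the group means, with black lines between the roles. The block of 18 synthesis enzymes has a median r of 0.513, and the row of Insig2 is mostly negative against it (mean −0.368).

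In some livers most of the chain lay on the same side of the group mean. In SB + TAA replicate 3 all 18 enzymes were above their group mean, with a median deviation of 0.40 on the log2 scale, and in SB + TAA replicate 2 only 2 of 18 were (median −0.58). In SB/AKT/NRas + saline replicate 3, 16 of 18 were above (median 0.55), and in SB/AKT/c-Met + saline replicate 3, 17 of 18 (median 0.42). SB/AKT/NRas + TAA replicate 1 had 0 of 18 above its group mean (median −0.30). In SB + saline, replicate 1 had 16 of 18 above (median 0.36) and also the lowest Insig2 of the group. Further livers also leaned to one side, among them SB + saline replicates 2 and 4, with 3 and 2 of 18 above. SB/AKT/c-Met + saline replicates 1 and 2 had 3 and 4 of 18 above. On the high side, SB/AKT/NRas + TAA replicates 3 and 4 had 15 and 16 of 18, and SB + TAA replicate 4 had 15. Nearest to an even division were SB + TAA replicate 1 with 7 of 18 above and SB + saline replicate 3 with 11 of 18. Replicates 1 and 4 of SB/AKT/NRas + saline and replicate 5 of SB/AKT/NRas + TAA each had 8 of 18. The range of the median deviations within each group was wider than any median difference of the 18 enzymes between groups, which ran from −0.27 to 0.30. A range of single livers and a difference between groups are unlike measures, so this does not weigh one against the other.

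**Figure D4:**
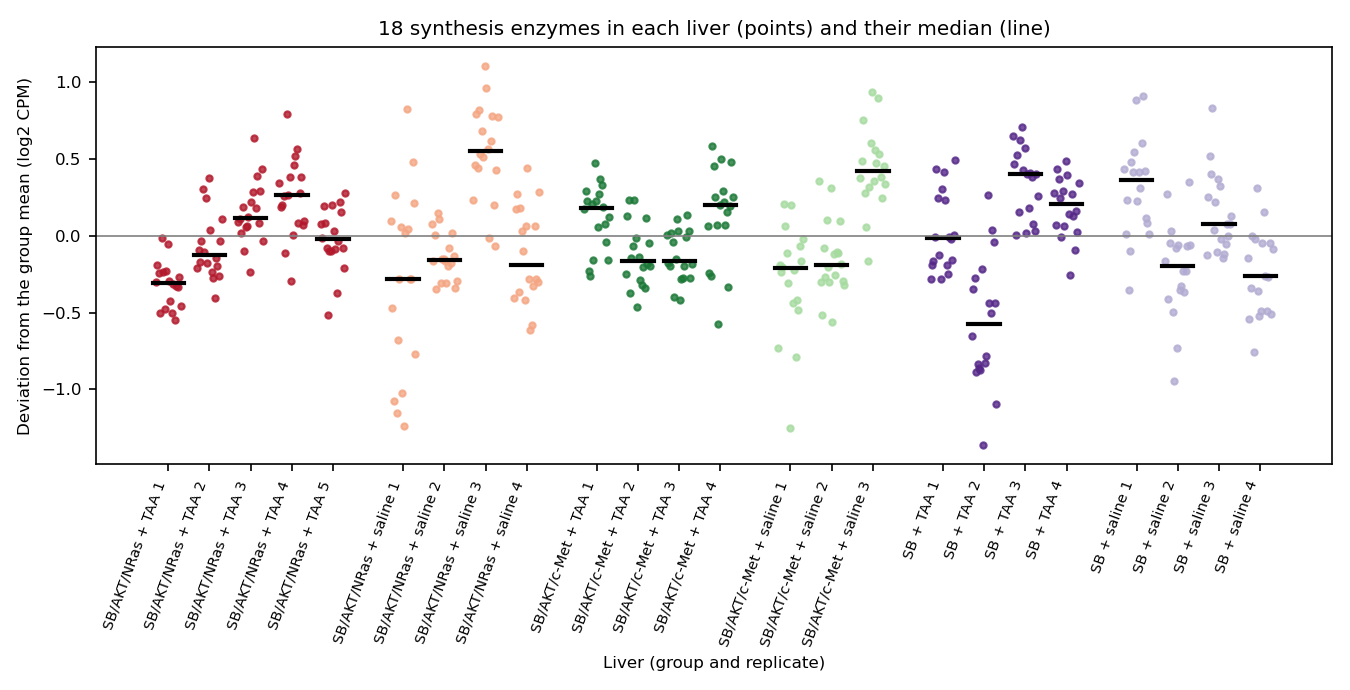
Deviation of each of 18 synthesis enzymes from its group mean (points, log2 CPM, y axis) in every liver (x axis, group and replicate), with the median over the enzymes (black line). The median lies at −0.58 in SB + TAA replicate 2 and at 0.40 in replicate 3 of the same group.

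The other members did not reach an unadjusted p under 0.05 in any comparison. Idi1, the isomerase of isopentenyl diphosphate, had 3 to 15 counts per liver and group means of 2.19 to 3.61 CPM. Fdps averaged 13.3 to 18.6 CPM, and part of its exons overlaps the annotated gene Gm43738 on the same strand. Acat2 averaged 87.8 to 108 CPM. Srebf2 averaged 7.81 to 10.8 CPM, Insig1 216 to 286 CPM, Sc5d 834 to 1099 CPM and Hsd17b7 39.6 to 49.6 CPM. Soat2 averaged 13.5 to 19.3 CPM, and SB + TAA replicate 2, the liver with the lowest enzymes of its group, had the highest Soat2 of all 24 livers (27.6 CPM).

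Genes that border the pathway were counted as whole lists. By the F test 1 of 5 genes of acetyl-CoA supply, 0 of 10 of the isoprenoid branch, 3 of 20 of sterol transport, 1 of 11 of sterol sensing and turnover and 4 of 10 of the LXR and SREBP1 list were called, against 9.01% of all genes. Sort1, a sorting receptor for lipoproteins, was at 2.69, 5.13, 2.45 and 3.52 CPM in SB + TAA, against 10.3, 7.96, 11.2 and 6.85 CPM in SB + saline. It fell by 1.42 on the log2 scale (SE 0.298, edgeR adjusted p = 0.00495), and in SB/AKT/NRas + TAA it rose by 1.41 relative to SB + TAA (SE 0.277, edgeR adjusted p = 0.00430). Sort1 rested on 8 to 13 counts per liver in SB + TAA. Both comparisons use the same SB + TAA livers, so the fall and the rise are not separate results. Pltp, the phospholipid transfer protein of plasma, had the same pattern, with the same SB + TAA livers in both comparisons. It was at 19.8, 21.7, 14.7 and 13.8 CPM in SB + TAA, against 54.8, 29.6, 29.3 and 51.4 CPM in SB + saline (fell by 1.25, SE 0.222, edgeR adjusted p = 0.00118), and at 31.4, 39.8, 24.8, 26.1 and 30.6 CPM in SB/AKT/NRas + TAA (rose by 0.81 relative to SB + TAA, edgeR adjusted p = 0.0456).

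The lipogenic genes of the last list, which SREBP1 and LXR switch on, also held calls. Me1, the malic enzyme that supplies NADPH, was at 143, 198, 221, 231 and 124 CPM in SB/AKT/NRas + TAA, against 79.0, 75.0, 111 and 50.6 CPM in SB + TAA (rose by 1.22, SE 0.231, edgeR adjusted p = 0.00291). It also rose by 1.06 in SB/AKT/c-Met + saline relative to SB + saline (SE 0.255, edgeR adjusted p = 0.0442), at 171, 178 and 214 CPM, against 131, 79.6, 80.6 and 68.9 CPM. Elovl6, which lengthens fatty acids, was at 660, 1012, 1084, 961 and 581.6 CPM in SB/AKT/NRas + TAA, against 190, 322, 221 and 290 CPM in SB/AKT/NRas + saline (rose by 1.75, SE 0.307, edgeR adjusted p = 0.00741). Each of these pairs of groups was apart, as in 2.89%, 5.28% and 1.74% of all genes in this direction, in the order given.

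In SB/AKT/NRas + saline against SB + saline, 3 of the 20 genes of sterol transport and 1 of the 10 LXR and SREBP1 genes were called and none of the other 3 border lists, where 8.41% of all genes were called. Gramd1b, a carrier of cholesterol from the cell membrane, was at 1.32, 5.22, 11.1 and 4.56 CPM, against 0.428, 1.14, 0.401 and 0 CPM with at most 2 counts in an SB + saline liver (edgeR adjusted p = 0.00543). Stard5, Lcat and Srebf1 were lower in the same comparison and are named because they were called, after their values were seen. Srebf1, the gene of SREBP1, was at 91.9, 78.3, 65.3 and 60.2 CPM, against 197, 134, 111 and 148 CPM (fell by 1.00, SE 0.282, edgeR adjusted p = 0.0255). Lcat, which esterifies cholesterol in plasma, fell by 0.87 and Stard5, a sterol carrier, by 0.66 (edgeR adjusted p = 0.0494 and 0.0352). Acss2, Abcg5, Erlin2 and Scd1 were called by the F test (edgeR adjusted p = 0.0378, 0.0411, 0.0232 and 0.0239) and in none of the pairwise comparisons.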

How the data were processed

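The files hold molecule counts per gene for 24 mouse livers. The counts deposited by the authors are raw, with no normalization, and both tables agree in all 1283208 cells. Per the methods of the study, Sabre split the reads by sample, STAR placed them on GRCm38 extended with human NRAS and MET, RNAsik removed molecular duplicates, and featureCounts 1.6.4 assigned forward-strand reads (mapping quality 10 or more).

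Genes reaching 0.5 CPM in 2 or more libraries were kept. A quasi-likelihood model of 6 group means was fitted over all 24 libraries with TMM scaling (edgeR 4.0.16, R 4.3.3). Adjusted p-values are Benjamini-Hochberg over 19381 genes. Alternatives were limma-voom (limma 3.58.1), DESeq2 1.42.0, other scaling, filters and estimation, only the groups compared, a fold over 2, a replicate block, and each liver omitted in turn. Fits were tested on simulated data. Correlations use log2 CPM with a prior count of 2, and figures matplotlib 3.10.9 (Python 3.11.15). The members and the lists were chosen with earlier results of these data known. All 27 members are named, and in each border list up to 4 genes with the smallest F test p among those called. Stard5, Lcat and Srebf1 were named in addition, after their values were seen. Each library is 1 mouse, so the tests set group differences against the variation between mice, counting noise included.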

Additional observations from a re-analysis of the deposited data

Results flagged for a closer look

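In 180 sets of 4 or 5 livers (1 gene in 1 group), over the 27 members and 9 border genes, 11 values lay far from the others of their set. This is near the rate of about 1 in 20 sets that chance gives. Several of the values lay in the same liver. In SB + saline replicate 1, Acat2 was at 117 CPM against 77.3 to 79.4 CPM in the other livers of the group, and Msmo1 at 169 CPM against 92.9 to 103 CPM. In SB/AKT/NRas + saline replicate 3, Fdps was at 28.98 CPM against 14.3 to 16.6 CPM, Nsdhl at 95.4 CPM against 43.9 to 48.7 CPM and Stard4 at 72.7 CPM against 45.2 to 46.6 CPM. In SB + TAA replicate 2, Soat2 was at 27.6 CPM against 16.2 to 16.8 CPM and Erlin2 at 16.97 CPM against 14.8 to 15.1 CPM. Mvd was at 12.6 CPM in SB/AKT/NRas + TAA replicate 2 against 9.28 to 10.0 CPM, and Insig1 at 392 CPM in SB/AKT/NRas + TAA replicate 3 against 154 to 204 CPM. Hsd17b7 was low in SB/AKT/c-Met + TAA replicate 4, at 35.1 CPM against 46.9 to 48.8 CPM. Scd1 was at 7591 CPM in SB + saline replicate 2 against 4548 to 5049 CPM.

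The effect of TAA on Pltp differed between livers with AKT and NRas and livers with SB alone, by 1.39 on the log2 scale (edgeR adjusted p = 0.0238). Pltp averaged 30.5 CPM in SB/AKT/NRas + TAA and 27.9 CPM in SB/AKT/NRas + saline, against 17.5 CPM in SB + TAA and 41.2 CPM in SB + saline.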

How the results depend on the processing

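Counts of members called at an adjusted p under 0.05 were recomputed under each alternative. Over all groups (3 members), DESeq2 called 6, no filter 10, and leaving out both livers that stand apart (replicate 4 of SB + TAA with replicate 1 of SB/AKT/NRas + saline) 5. For SB + TAA over SB + saline (1), DESeq2 called 3, library size alone 4, no filter 3 and filterByExpr 2. For SB/AKT/c-Met + saline over SB + saline (0), DESeq2 called 2, no filter 2 and a fit of the groups compared only 1. For SB/AKT/NRas + saline over SB + saline (2), library size alone called 7, no filter 5, a fold over 2 as well 0 and the groups compared only 0. No filter called 2 for SB/AKT/c-Met + TAA over SB + TAA (0) and 4 for SB/AKT/NRas + TAA over SB + TAA (1). For the difference in TAA effect between SB/AKT/NRas and SB livers (0), library size alone called 3, no filter 1 and both livers left out 1. Omitting each liver in turn gave 2 to 6 over all groups, 1 to 3 for SB + TAA, 0 to 5 for SB/AKT/NRas + saline, 0 to 1 for SB/AKT/c-Met + TAA and 1 to 2 for SB/AKT/NRas + TAA over SB + TAA, 0 to 2 for the NRas difference in TAA effect, and 0 in the others. No called gene reversed its direction, and the cause of these changes was not tested. With the replicate number as a block the counts were 3 over all groups, 1, 0 and 2 against SB + saline, 0 and 1 against SB + TAA, and 0 elsewhere, as without it. Livers with the same number did not deviate together (mean r −0.00734 over 55 pairs, against 0.00215 for other pairs). The data thus show no pairing by number, which does not settle whether mice were paired. With library size alone the median log2 difference of all genes was 0.46 for SB + TAA over SB + saline (0.09 with TMM), 0.28 for SB/AKT/c-Met + saline (0.02 with TMM) and −0.52 for the NRas difference in TAA effect (−0.11 with TMM). Idi1 rested on 3 to 15 counts per liver, which limits its precision.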
